A study of Saccharomyces cerevisiae with 15 samples.

Results

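The 10 genes described here are LEU4, LEU9, LEU1, ILV1, ILV2, ILV6, ILV5, ILV3, BAT1 and OAC1 of budding yeast, Saccharomyces cerevisiae. They were taken by their systematic names from the 6600 genes counted. All 10 passed the filter on low counts, which left 5851 genes for testing. Between them they cover the enzymes that make leucine, isoleucine and valine, apart from LEU2 and BAT2, and the mitochondrial carrier encoded by OAC1. The study asked how messenger RNA of a mutant with impaired assembly of RNA polymerase III differs from that of its suppressed forms. The data come from 15 RNA-seq libraries made after oligo(dT) selection, with 3 cultures for each of the 5 strains.

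Every strain carried the chromosomal rpc128-1007 allele, a mutation in the second largest subunit of RNA polymerase III, together with a leu2 allele, further markers in HIS3, LYS2, URA3 and ADE2, and the suppressor SUP11. The strain written rpc128-1007 held an empty vector. [PRT1] held a multicopy plasmid with PRT1, the gene of a subunit of translation initiation factor eIF3, and with part of PRE10. The marker of the empty vector is not given in the sources used here, and for PRT1 they name both a URA3 and a LEU2 plasmid. Levels of URA3 and LEU2 in each strain are given below. [RBS1] held a multicopy LEU2 plasmid with RBS1, the gene of an RNA-binding protein that helps assembly of the polymerase. [RBS1-R3H] held the same LEU2 plasmid with an RBS1 allele whose R3H domain is inactive, a negative control in the study. The control, written wt, held the native RPC128 gene on a centromeric URA3 plasmid and so kept the mutant allele on its chromosome. Cells were grown overnight in selective medium, moved to rich glucose medium (YPD) and harvested in log phase, so all 5 strains are transformants of 1 mutant background in rich medium.

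Total counts per library lay between 7365923 and 12164321. The plasmid genes followed the labels. PRT1 averaged 4818 ± 324 CPM (counts per 1000000 of the scaled library total, SD, n = 3) in [PRT1] and between 582 and 664 CPM in the other 4 strains. RBS1 averaged 4410.1 ± 179.6 CPM in [RBS1], 2986 ± 833 CPM in [RBS1-R3H] and 85.3 to 100.3 CPM elsewhere (SD, n = 3). URA3 averaged 2120 CPM in rpc128-1007, 971 in [PRT1] and 738 in wt, against 197 in [RBS1] and 207 in [RBS1-R3H]. LEU2 averaged 790, 456 and 370 CPM in the first of these strains, against 2395 in [RBS1] and 3760 in [RBS1-R3H]. By these levels rpc128-1007 and [PRT1] grouped with wt, which holds a URA3 plasmid, and not with the strains that hold a LEU2 plasmid. In replicate 2 of rpc128-1007 and replicate 2 of [RBS1], the deviation of a gene from its strain mean went up with gene length, with Spearman correlations of 0.558 and 0.50 over 5699 genes, against -0.462 to 0.423 in the other 13 libraries. Without these 2 libraries, in the comparisons that involve rpc128-1007 or [RBS1], the calls of the 10 genes were the same except for ILV6 in [RBS1] against [PRT1], described with that comparison.

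Valine and isoleucine are made in the mitochondrion by shared enzymes, and leucine is made from the last keto acid of the valine branch. The intermediate alpha-isopropylmalate is both a substrate on the way to leucine and the co-activator of Leu3, a transcription factor that binds upstream of several of these genes. Gcn4, the activator of general amino acid control, acts on most amino acid pathways, this one included. In a leu2 strain without a LEU2 plasmid the leucine pathway is cut after the LEU1 step, and leucine comes from the medium.

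The letters of both factors were looked for in the 500 bases before each start codon, in the R64 reference with its own annotation. The reads had been mapped to another release, EF4, and no coordinate of that release is used. The Leu3 letters were CCGNNNNCGG, which read the same on both strands, and the Gcn4 letters were TGACTC on either strand. Of the 10 genes 6 held the Leu3 letters, against 3.27% of 5896 windows of this length. The Gcn4 letters stood before 9 of the 10, all but ILV2, against 12.9% of the windows. No Leu3 match overlapped a Gcn4 match. LEU4, ILV1, ILV6 and ILV3 had no Leu3 match, which says only that these letters are not in this window. For ILV1, ILV6 and ILV3 the window ran into a neighbouring gene by 164, 353 and 188 bases. A match is a stretch of letters and not a measured site.

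The Leu3 windows of all 6 genes that hold these letters are shown. Capitals mark the Leu3 letters, with 15 bases on each side, 5′ to 3′ on the strand of the gene in R64. LEU1 holds them at 208 and 178 bases before its start (chrVII:478845-478884 and chrVII:478815-478854, minus strand). The others lie 138 bases before BAT1 (chrVIII:517370-517409, plus), 475 before OAC1 (chrXI:216845-216884, plus), 368 before ILV5 (chrXII:839606-839645, minus), 459 before ILV2 (chrXIII:483601-483640, plus) and 268 before LEU9 (chrXV:522735-522774, plus).
LEU1 distal: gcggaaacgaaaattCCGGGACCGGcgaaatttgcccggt
LEU1 proximal: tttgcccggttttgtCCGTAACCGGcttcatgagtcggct
BAT1: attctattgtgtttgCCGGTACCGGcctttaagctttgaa
OAC1: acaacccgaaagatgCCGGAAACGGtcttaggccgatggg
ILV5: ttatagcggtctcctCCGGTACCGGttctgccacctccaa
ILV2: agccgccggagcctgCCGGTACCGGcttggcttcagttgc
LEU9: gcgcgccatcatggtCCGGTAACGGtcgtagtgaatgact

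The 4 genes with Gcn4 letters and no Leu3 letters are shown for contrast, with the Gcn4 letters in capitals. They stand 96 bases before LEU4 (chrXIV:426835-426870, minus strand), 128 before ILV1 (chrV:328329-328364, plus), 145 before ILV6 (chrIII:105678-105713, minus) and 130 before ILV3 (chrX:466323-466358, minus).
LEU4: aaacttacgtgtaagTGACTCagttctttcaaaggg
ILV1: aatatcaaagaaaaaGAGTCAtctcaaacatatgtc
ILV6: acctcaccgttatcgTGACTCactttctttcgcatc
ILV3: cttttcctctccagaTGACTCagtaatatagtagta

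**Figure D1:**
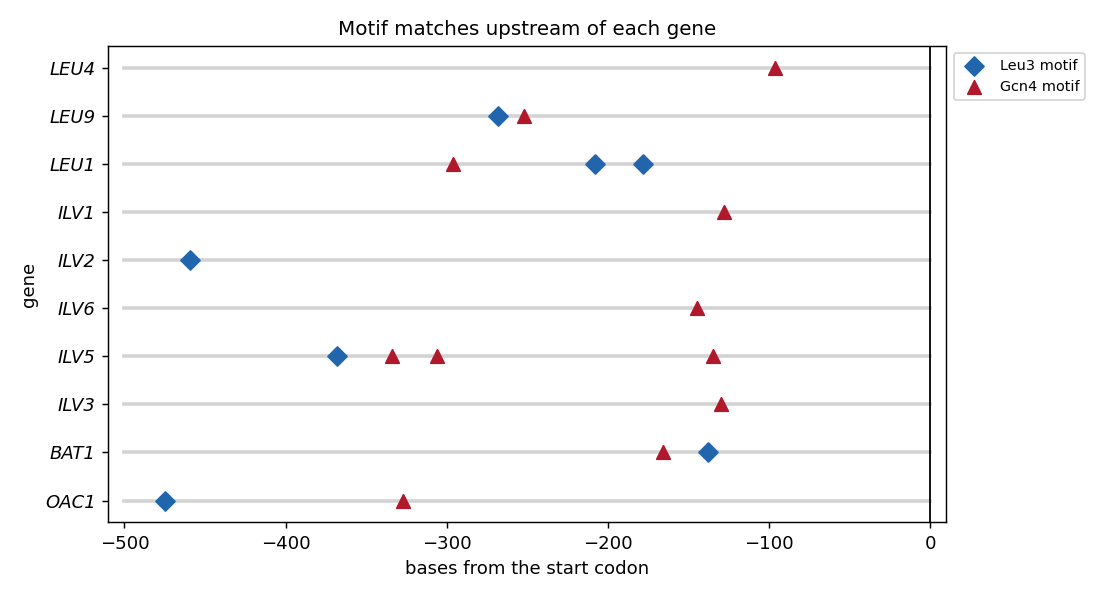
Matches to the Leu3 letters (diamonds) and the Gcn4 letters (triangles) in the 500 bases before the start codon of each of the 10 genes (rows), by distance from the start in bases. LEU1 holds 2 Leu3 matches and ILV5 holds 3 Gcn4 matches, while LEU4, ILV1, ILV6 and ILV3 hold Gcn4 matches only.

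The leucine branch begins with alpha-isopropylmalate synthase. LEU4 (YNL104C, chrXIV:424895-426754, minus strand) encodes its main form. LEU4 had 1567, 1280.2 and 1031 CPM in the 3 libraries of rpc128-1007 and 1731, 1781 and 1469 CPM in [RBS1-R3H]. It had 383, 392 and 416 CPM in [PRT1], 338, 279.9 and 330.2 CPM in [RBS1] and 318, 336 and 461 CPM in wt. The 6 libraries of rpc128-1007 and [RBS1-R3H] were all above 1000 CPM and the other 9 all below 500 CPM. LEU9 (YOR108W, chrXV:523027-524841, plus strand), the gene of the second synthase, spanned 329 to 405 CPM in [RBS1-R3H], 299.7 to 393 in rpc128-1007, 213 to 265 in [PRT1], 178 to 218 in [RBS1] and 181 to 204 in wt. The libraries of [RBS1-R3H] and rpc128-1007 were again above all others, with smaller gaps, 1.95-fold between its highest and lowest strain means against 5.25-fold for LEU4.

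LEU1 (YGL009C, chrVII:476313-478652, minus strand) encodes isopropylmalate isomerase, the next step. It had 3717, 3888 and 3124 CPM in rpc128-1007, 1389.6, 1838 and 1629 CPM in [PRT1], 273, 274 and 248 CPM in [RBS1], 1330.4, 1544 and 1135 CPM in [RBS1-R3H] and 1317, 1467 and 1777 CPM in wt. Unlike LEU4, LEU1 in [RBS1-R3H] overlapped wt and [PRT1], and [RBS1] stood far below all other libraries. The strain means of LEU1 spanned 13.5-fold.

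ILV1 (YER086W, chrV:328477-330207, plus strand) encodes threonine deaminase, which opens the isoleucine branch. Its libraries spanned 828 to 1002 CPM in [RBS1-R3H], 557 to 742 in rpc128-1007, 377 to 400.2 in [RBS1], 341 to 364 in [PRT1] and 354 to 364 in wt. ILV2 (YMR108W, chrXIII:484084-486147, plus strand) encodes the catalytic subunit of acetolactate synthase, the first enzyme shared by the valine and isoleucine branches. It had 1889.6, 1761 and 1565 CPM in rpc128-1007, 1717, 1958 and 1672 CPM in [RBS1-R3H], 749, 826 and 814 CPM in [PRT1], 569, 581 and 589 CPM in [RBS1] and 733, 764 and 837 CPM in wt. For both genes the libraries of rpc128-1007 and [RBS1-R3H] lay above all others, and for ILV2 those of [RBS1] lay below all others.

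ILV6 (YCL009C, chrIII:104619-105548, minus strand) encodes the regulatory subunit of acetolactate synthase. It had 1267, 1768 and 1084 CPM in [RBS1-R3H] and 999, 998 and 639 CPM in rpc128-1007. In the other strains ILV6 had 405, 476 and 349 CPM in [RBS1], 228, 309 and 243 CPM in [PRT1] and 325, 326 and 298 CPM in wt. Here [RBS1] was above wt in all 3 libraries, the reverse of its place for ILV2. The reductoisomerase gene ILV5 (YLR355C, chrXII:838066-839253, minus strand) had 4148, 3314 and 2785 CPM in rpc128-1007, 2811, 2592 and 2085 CPM in [RBS1-R3H], 2069, 2137 and 1805 CPM in [PRT1], 1253, 1068 and 1011 CPM in [RBS1] and 1807, 1939 and 1602 CPM in wt. ILV3 (YJR016C, chrX:464451-466208, minus strand), the gene of dihydroxyacid dehydratase, spanned 1717 to 2377 CPM in rpc128-1007, 1746 to 2203 in [RBS1-R3H], 915 to 1043 in [PRT1], 618 to 659 in [RBS1] and 888 to 919 in wt. For ILV5 and ILV3 the [RBS1] libraries were the lowest of all.

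BAT1 (YHR208W, chrVIII:517532-518713, plus strand) encodes the mitochondrial transaminase that takes part in the last step of all 3 pathways. It had 3419.8, 3722 and 2840.0 CPM in rpc128-1007, 2805, 3228 and 2873 CPM in [PRT1], 464, 472 and 440.5 CPM in [RBS1], 1956, 2203 and 1628 CPM in [RBS1-R3H] and 1248, 1299.7 and 1442 CPM in wt. The [PRT1] libraries of BAT1 overlapped those of rpc128-1007. OAC1 (YKL120W, chrXI:217344-218318, plus strand) encodes a carrier of the mitochondrial inner membrane that moves oxaloacetate and exports alpha-isopropylmalate. OAC1 had 1957, 1163 and 1267 CPM in rpc128-1007, 428, 569 and 493 CPM in [PRT1], 101, 82.1 and 102 CPM in [RBS1], 482, 519.8 and 429 CPM in [RBS1-R3H] and 395, 437 and 417 CPM in wt. Its 3 intermediate strains lay close together, rpc128-1007 stood above them and [RBS1] below, a span of 15.4-fold in the strain means, the widest of the 10. These are mixtures of cells, so fewer cells with a transcript and less transcript per cell cannot be told apart.

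**Figure D2:**
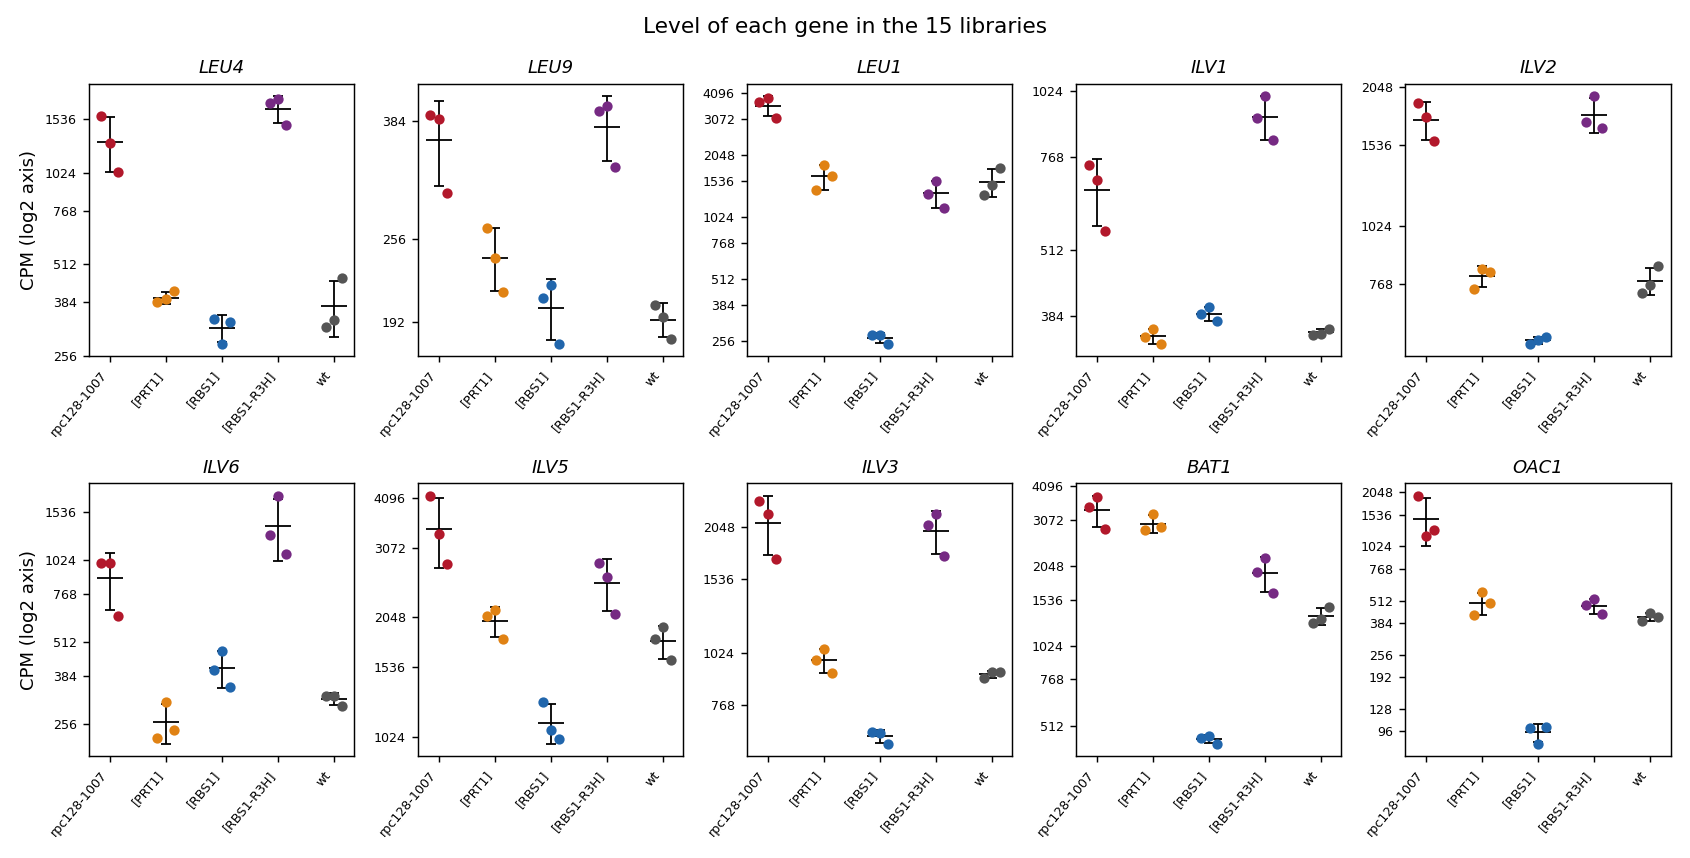
CPM of each of the 10 genes in the 15 libraries on log2 axes. Points are libraries, horizontal marks are strain means and bars are SD (n = 3). The 3 [RBS1] libraries of LEU1 (248 to 274 CPM) and OAC1 (82.1 to 102 CPM) lie far below those of every other strain, and LEU4 is high in rpc128-1007 and [RBS1-R3H] only.

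Strain differences were tested with edgeR's quasi-likelihood test in 1 model that held all 15 libraries. A gene was called at an adjusted p under 0.05, with Benjamini-Hochberg correction across 5851 genes. Fold changes are on the log2 scale. The SE beside each is computed from the spread of the libraries' log2 CPM. Many comparisons share strains, so they are given side by side and are not separate tests of 1 pattern.

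All 10 genes were called higher in rpc128-1007 than in wt. The share of all tested genes called higher was 12.7%, and 5.62% were called lower, 1074 genes in all, or 1616 with the replicate number as a block. OAC1 rose 3.51-fold (log2 1.81, SE 0.24, adjusted p = 8.62e-06) and LEU4 3.48-fold (log2 1.80, SE 0.24, adjusted p = 5.6e-06). The smallest changes were 1.86-fold for ILV1 and 1.86-fold for LEU9. Between these lay ILV6 (log2 1.47, SE 0.22), BAT1 (1.32, SE 0.13), LEU1 (1.23, SE 0.16), ILV3 (1.21, SE 0.14), ILV2 (1.16, SE 0.10) and ILV5 (0.94, SE 0.18). The median log2 change of the 10 was 1.22, against 0.013 for all genes tested. Levels of single genes in wt ranged over 14.1-fold per kilobase of coding sequence, with 1501 CPM per kb for ILV5 and 107 for LEU9.

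The direct comparison of [RBS1] with [RBS1-R3H] matches the LEU2 marker. All 10 genes were called lower in [RBS1], beside 14.4% of all genes called lower and 13.5% called higher. The fall was 5.25-fold for LEU4 (log2 -2.39, SE 0.12, adjusted p = 1.87e-07), 5.04-fold for LEU1 (log2 -2.33, SE 0.14, adjusted p = 1.35e-07), 5.02-fold for OAC1 (log2 -2.33, SE 0.13) and 4.20-fold for BAT1 (log2 -2.07, SE 0.13). The log2 change was -1.74 for ILV6 (SE 0.24), -1.64 for ILV3 (SE 0.10), -1.62 for ILV2 (SE 0.07), -1.23 for ILV1 (SE 0.08) and -1.17 for ILV5 (SE 0.16). The fall was least for LEU9, at 1.87-fold. The median log2 change was -1.69, against 0.012 over all genes. The marker was matched in kind but not in level. LEU2, the gene of isopropylmalate dehydrogenase, had 2259, 1898 and 3028 CPM in [RBS1] and 4429, 3410.1 and 3441 CPM in [RBS1-R3H], a log2 change of -0.65 (adjusted p = 0.0151). RBS1 itself had a log2 difference of 0.56 (adjusted p = 0.0514). The part of either level in the result was not tested, and reads of the chromosomal leu2 allele and of the plasmid LEU2 cannot be told apart.

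Against rpc128-1007, [RBS1-R3H] had members called in both directions. LEU1, BAT1 and OAC1 fell, beside 6.8% of all genes, with log2 changes of -1.42, -0.79 and -1.62 and adjusted p of 7.27e-05, 0.00112 and 0.000127. ILV1 and ILV6 rose, beside 4.67% of all genes, by log2 0.46 (SE 0.15, adjusted p = 0.00691) and 0.64 (SE 0.30, adjusted p = 0.0472). The remaining 5 were not called, with log2 values of -0.45 for ILV5, -0.06 for ILV3, 0.04 for ILV2, 0.07 for LEU9 and 0.36 for LEU4. Of the 6 genes with Leu3 letters 3 fell and 3 (LEU9, ILV2 and ILV5) were not called, and of the 4 without them 2 rose and 2 (LEU4 and ILV3) were not called. In a fit of these 2 strains alone neither rise was called, with adjusted p of 0.0967 for ILV1 and 0.168 for ILV6, and 221 genes were called over all, against 671 in the fit of 5 strains. In the fit of all strains that number was 390 without replicate 3 of rpc128-1007, 397 without replicate 1 of [RBS1-R3H] and 317 without its replicate 2. ILV6 was also not called without replicate 3 of rpc128-1007 (adjusted p = 0.184) or without replicate 1 or 2 of [RBS1-R3H] (0.0717 and 0.224). ILV5 was called lower with library totals as the scaling (log2 -0.48, adjusted p = 0.0328), with DESeq2 (log2 -0.43, adjusted p = 0.0307) and without replicate 3 of rpc128-1007 (log2 -0.58, adjusted p = 0.0254), and LEU4 was called higher without replicate 1 of rpc128-1007 (log2 0.52, adjusted p = 0.0419). The LEU2 plasmid and the RBS1-R3H allele cannot be told apart in this comparison. LEU2 was at 3760.2 CPM in [RBS1-R3H] and 790.1 CPM in rpc128-1007.

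Against wt, [RBS1-R3H] had 8 of the 10 genes higher, beside 13.4% of all genes called higher and 9.55% called lower. LEU4 rose 4.47-fold and ILV6 4.34-fold, with log2 changes of 2.16 (SE 0.19) and 2.12 (SE 0.21). LEU1 and OAC1 were not called, at log2 -0.19 (SE 0.18, adjusted p = 0.364) and 0.20 (SE 0.09, adjusted p = 0.44). ILV1 rose 2.55-fold, ILV2 2.29-fold, ILV3 2.21-fold and LEU9 1.95-fold. BAT1 and ILV5 rose least, by log2 0.54 and 0.49. The call of ILV5 (adjusted p = 0.0257) was lost without replicate 1 or 2 of [RBS1-R3H] or replicate 1 or 3 of wt, with adjusted p between 0.0603 and 0.109. The part of LEU2, at 3760 CPM in [RBS1-R3H] and 370 CPM in wt, was not tested.

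**Figure D3:**
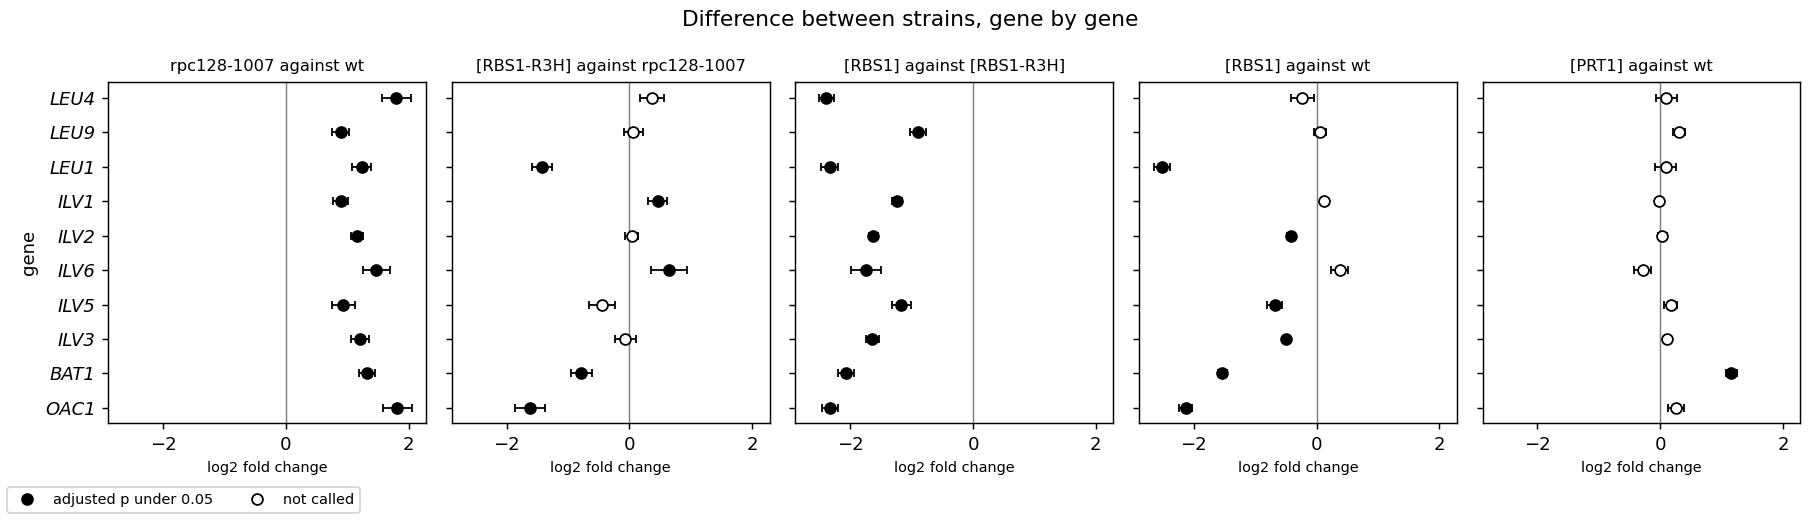
Log2 fold changes of the 10 genes (rows) in 5 comparisons between strains (panels), with bars of 1 SE from the spread of the libraries. Filled points had an adjusted p under 0.05. In [RBS1-R3H] against rpc128-1007 LEU1 (-1.42), BAT1 (-0.79) and OAC1 (-1.62) are the filled points left of 0, and ILV5 (-0.45) is an open point whose bar overlaps that of BAT1.

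In [RBS1] all 10 genes were called lower than in rpc128-1007, beside 17.1% of all genes called lower and 12.6% called higher. OAC1 fell 15.4-fold (log2 -3.95, SE 0.25, adjusted p = 6.4e-09), LEU1 13.5-fold (log2 -3.75, SE 0.11, adjusted p = 1.92e-09) and BAT1 7.25-fold (log2 -2.86, SE 0.12, adjusted p = 2.69e-09). Ranked by log2 change from the lowest, OAC1 was number 1, LEU1 number 2 and BAT1 number 4 of the 5851 genes. LEU4 fell 4.09-fold, ILV3 3.26-fold, ILV5 3.08-fold, ILV2 3.00-fold, ILV6 2.14-fold, LEU9 1.78-fold and ILV1 1.71-fold. LEU2 was at 2395 CPM in [RBS1] and 790.1 CPM in rpc128-1007, and its part in these falls was not tested. With the inactive allele on the LEU2 plasmid, OAC1, LEU1 and BAT1 were also below rpc128-1007 (log2 -1.62, -1.42 and -0.79).

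Some members were also below wt in [RBS1]. LEU1, OAC1, BAT1, ILV5, ILV3 and ILV2 fell, beside 4.29% of all genes called lower and 6.53% called higher. LEU1 was 5.74-fold lower (log2 -2.52, SE 0.13, adjusted p = 1.42e-07), OAC1 4.39-fold (log2 -2.13, SE 0.11, adjusted p = 4.07e-06) and BAT1 2.90-fold (log2 -1.54, SE 0.07, adjusted p = 1.81e-06). ILV5, ILV3 and ILV2 had log2 changes of -0.68, -0.50 and -0.43. The share of all genes called rests on 633 genes, and this number depended on single libraries: it was 333 without replicate 1 and 373 without replicate 2 of [RBS1], and 394, 276 and 336 without replicate 1, 2 or 3 of wt. The 6 genes named were called lower in each of these fits. LEU4, LEU9, ILV1 and ILV6 were not called, at log2 -0.23, 0.06, 0.12 and 0.37. Of the 6 genes with Leu3 letters 5 fell, all but LEU9, and of the 4 without them 1 fell, ILV3. In [RBS1] against [PRT1] 5 of the 6 with the letters also fell, and of the 4 without them 1 fell and 1 rose. [RBS1-R3H] against rpc128-1007 had 3 of the 6 lower and 0 higher, and 0 of the 4 lower and 2 higher. Some other comparisons showed no such split. All 6 and all 4 fell in [RBS1] against [RBS1-R3H], by log2 -2.33 to -0.90 and -2.39 to -1.23. All 6 and all 4 also fell in [RBS1] against rpc128-1007 and rose in rpc128-1007 against wt. The part of the letters was not tested. The marker differed between [RBS1] and wt, with LEU2 at 2395 CPM in [RBS1] and 370.2 CPM in wt, and its part was not tested.

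In [PRT1], 9 of the 10 genes were lower than in rpc128-1007, beside 13.7% of all genes called lower and 8.1% called higher. ILV6 fell 3.38-fold (log2 -1.76, SE 0.25, adjusted p = 2.05e-05), LEU4 3.26-fold and OAC1 2.94-fold. The log2 changes of LEU1, ILV2, ILV3, ILV1, ILV5 and LEU9 were -1.14, -1.13, -1.10, -0.92, -0.77 and -0.59. BAT1 was the exception, with 2969 ± 228 CPM in [PRT1] and 3327 ± 448 CPM in rpc128-1007 (SD, n = 3 each, log2 -0.16, SE 0.13, adjusted p = 0.369). Against wt, BAT1 was 2.23-fold higher in [PRT1] (log2 1.16, SE 0.09, adjusted p = 5.84e-06), beside 7.06% of all genes called higher and 4.91% called lower. The other 9 were not called in [PRT1] against wt and had log2 values of 0.31 for LEU9, 0.26 for OAC1, 0.17 for ILV5, 0.11 for ILV3, 0.10 for LEU4, 0.09 for LEU1, 0.03 for ILV2, -0.02 for ILV1 and -0.28 for ILV6. With the replicate number as a block LEU9 was called as well (log2 0.30, adjusted p = 0.00409), and 1229 genes were called over all, against 700 without the block. Without the block the number over all genes was 410 without replicate 1 and 442 without replicate 2 of [PRT1], and 417 without replicate 3 of wt.

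[RBS1] had 6 genes lower and 1 higher than [PRT1], beside 8.55% and 7.78% of all genes. The 6 were those also below wt. BAT1 fell 6.47-fold (log2 -2.69, SE 0.07), LEU1 6.11-fold (log2 -2.61, SE 0.13) and OAC1 5.24-fold (log2 -2.39, SE 0.16). ILV5, ILV3 and ILV2 had log2 changes of -0.85, -0.61 and -0.46. LEU4, LEU9 and ILV1 were not called, at log2 -0.33, -0.25 and 0.14. ILV6 was 1.58-fold higher (log2 0.66, SE 0.19, adjusted p = 0.0337). The ILV6 call was lost without replicate 1 or 3 of [PRT1] or replicate 1 or 2 of [RBS1], with adjusted p between 0.0745 and 0.128, and without replicate 2 of both rpc128-1007 and [RBS1] (adjusted p = 0.0923). LEU4 was called lower in a fit of these 2 strains (log2 -0.35, adjusted p = 0.0473). LEU2 was at 2395 CPM in [RBS1] and 456 CPM in [PRT1], and its part was not tested. [RBS1-R3H] was set against [PRT1] after the levels had been seen. LEU4, LEU9, ILV1, ILV2, ILV6 and ILV3 were higher in [RBS1-R3H] and BAT1 was lower, beside 12.7% of all genes called higher and 12% called lower. The log2 change was 2.40 (SE 0.25) for ILV6, 2.06 for LEU4, 1.38 for ILV1, 1.16 for ILV2, 1.03 for ILV3, 0.65 for LEU9 and -0.62 (SE 0.14) for BAT1. OAC1, LEU1 and ILV5 were not called, at -0.06 (SE 0.14), -0.28 and 0.32. ILV5 was called higher with the block (log2 0.31, adjusted p = 0.0114) and without replicate 3 of [RBS1-R3H] (log2 0.45, adjusted p = 0.0498). The part of LEU2, at 3760 CPM in [RBS1-R3H] and 456 CPM in [PRT1], was not tested.

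The 10 genes together took 1.83% ± 0.232 of all counts in rpc128-1007, 1.01% ± 0.0618 in [PRT1], 0.465% ± 0.0250 in [RBS1], 1.37% ± 0.145 in [RBS1-R3H] and 0.821% ± 0.0417 in wt (SD, n = 3 each). Within a strain the coefficient of variation of a gene lay between 1.36% and 29.5%, with a median of 10.2%. Libraries of a strain moved together to some degree. Replicate 3 was the lowest of [RBS1-R3H] for all 10 genes and the lowest of rpc128-1007 for 9 of them. Over the 15 libraries the Pearson correlation of log2 CPM between pairs of the 10 genes ranged from 0.242 for ILV6 with BAT1 to 0.989 for ILV2 with ILV3, with a median of 0.826 over 45 pairs. These points share strains and libraries and describe these 15 libraries only. OAC1 correlated at 0.978 with LEU1, the closest of 5850 other genes, and at 0.363 with ILV6.

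Ratios of paired enzymes within a library, per kilobase, also moved between strains. LEU4 over LEU9 was 3.49 ± 0.355 in rpc128-1007 and 4.30 ± 0.0579 in [RBS1-R3H], against 1.63 ± 0.250 in [PRT1], 1.55 ± 0.280 in [RBS1] and 1.89 ± 0.513 in wt. LEU1 over LEU4, successive steps of the leucine branch, was 0.672 ± 0.0949 in [RBS1] and 0.638 ± 0.0443 in [RBS1-R3H], against 2.24 ± 0.303 in rpc128-1007, 3.24 ± 0.437 in [PRT1] and 3.28 ± 0.203 in wt. The 6 libraries of [RBS1] and [RBS1-R3H] thus had more LEU4 than LEU1, and the other 9 the reverse. ILV6 over ILV2, the 2 subunits of acetolactate synthase, was 1.57 ± 0.252 in [RBS1] and 1.69 ± 0.287 in [RBS1-R3H], against 1.11 ± 0.183 in rpc128-1007, 0.722 ± 0.0937 in [PRT1] and 0.907 ± 0.103 in wt. BAT1 over BAT2, the mitochondrial and the cytosolic transaminase, was 9.32 ± 0.367 in [PRT1], 8.46 ± 2.22 in rpc128-1007, 6.06 ± 1.38 in [RBS1-R3H], 2.12 ± 0.175 in [RBS1] and 4.47 ± 0.827 in wt (SD, n = 3 for each ratio). The ratios are descriptions and were not tested.

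**Figure D4:**
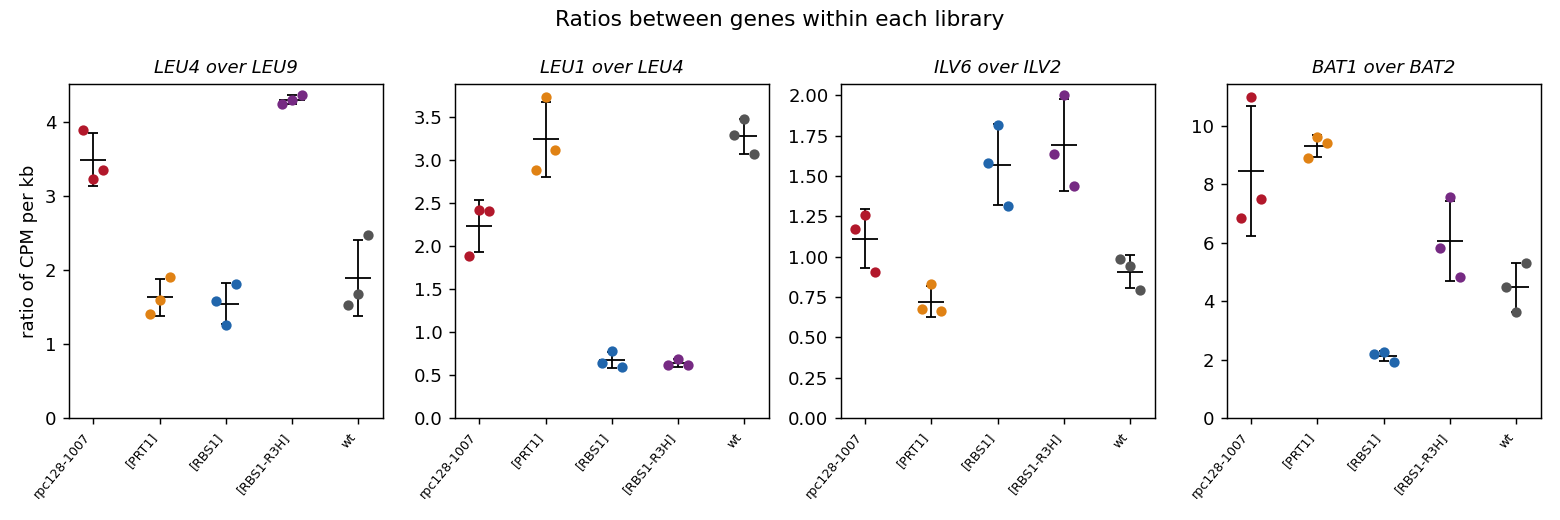
Ratios of CPM per kilobase between pairs of genes in each library, by strain. Points are libraries, marks are means and bars are SD (n = 3), on axes that start at 0. LEU1 over LEU4 lies below 1 in the 6 libraries of [RBS1] and [RBS1-R3H] and above 1 in the other 9.

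Other genes of branched-chain metabolism were read from lists. In [RBS1] against [RBS1-R3H], 3 of LEU2, LEU3, BAT2, LEU5 and GDH1 were lower and 0 higher, and 2 of 3 branched-chain permease genes were lower and 0 higher, beside 14.4% of all genes called lower and 13.5% called higher. LEU3, the gene of the regulator, had 104 ± 12.2 CPM in [RBS1] and 138 ± 8.43 CPM in [RBS1-R3H] (SD, n = 3 each, log2 -0.41, adjusted p = 0.0068). BAT2 fell by 0.57 on the log2 scale (adjusted p = 0.00576), and GDH1, the gene of an NADP-linked glutamate dehydrogenase that holds Leu3 letters in its window, was not called (log2 -0.03, adjusted p = 0.851). The permease genes that fell were BAP2 and BAP3, and TAT1 did not pass the test. BAP2, which holds Leu3 letters as well, had 335, 309 and 340.0 CPM in [RBS1] and 1091, 1217 and 1089.8 CPM in [RBS1-R3H] (log2 -1.79, SE 0.07, adjusted p = 9.09e-08), and against wt its log2 change in [RBS1] was -0.98 (adjusted p = 4.33e-05). Against wt, where 4.29% of all genes were called lower, BAP2 was the 1 permease gene of 3 called lower in [RBS1], and 2 of the 5 other genes, GDH1 (log2 -0.50, adjusted p = 0.0127) and BAT2 (log2 -0.48, adjusted p = 0.0366), were lower and LEU2 was higher. GDH1 and BAT2 both hold Leu3 letters, and so does LEU2, the plasmid marker, which was higher (log2 2.69). In rpc128-1007 against wt, BAP2 was 1.81-fold higher and LEU2 2.13-fold higher.

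Of 6 genes on the way from aspartate to threonine and its breakdown, 4 were lower and 1 higher in [RBS1] than in [RBS1-R3H], where 14.4% of all genes were lower and 13.5% higher, and HOM2, the gene of aspartate semialdehyde dehydrogenase, changed most (log2 -2.20, SE 0.11, adjusted p = 1.14e-07). In the same comparison and beside the same shares, of 3 pantothenate genes, which draw on the valine branch, 2 were lower and 0 higher, led by ECM31 (log2 -0.60, adjusted p = 0.00256). Of 5 genes that decarboxylate the keto acids, ARO10 alone was called, as lower (log2 -1.03, adjusted p = 0.0123).

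Histidine and arginine genes, known targets of Gcn4 outside this pathway, were set beside the 10 genes. In [RBS1-R3H] against rpc128-1007, 6 of 7 histidine genes were higher and 0 lower (median log2 0.63), and 9 of 9 arginine genes were higher (median 0.82), while the 10 branched-chain genes had 2 higher and 3 lower (median -0.01). Over all genes 4.67% were higher and 6.8% lower. The most changed were HIS5 (log2 0.97) and ARG1 (log2 1.15, adjusted p = 0.0426). In [RBS1] against wt, 0 histidine and 2 arginine genes were higher and 0 of either list were lower (medians 0.25 and 0.64), while 6 of the 10 branched-chain genes were lower (median -0.46), and all genes had a median of 0.0043, with 6.53% called higher and 4.29% called lower. GCN4 had 1389 ± 97.9 CPM in [RBS1] and 1057 ± 20.7 CPM in wt (SD, n = 3 each, log2 0.39, adjusted p = 0.00451). Gcn4 is controlled mainly at translation, which these counts do not measure. In [RBS1] against [PRT1], 3 of 7 histidine and 6 of 9 arginine genes were higher and 0 of either list lower (medians 0.42 and 0.96). The 10 branched-chain genes there had 6 lower and 1 higher (median -0.53), beside 8.55% and 7.78% of all genes. Both lists moved with the 10 genes in some other comparisons. In rpc128-1007 against wt, 6 of 7 histidine and 9 of 9 arginine genes were higher, beside 12.7% of all genes. The medians were 1.07 and 2.21, against 1.22 for the 10 genes. In [RBS1] against [RBS1-R3H], 6 of 7 and 9 of 9 were lower, beside 14.4% of all genes. There the medians were -1.41 and -2.32, against -1.69 for the 10 genes. The difference between lists was not tested.

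Outside the 10 genes, those whose log2 CPM followed OAC1 most closely over the 15 libraries were RPS14B (Pearson r = 0.949), DRE2 (0.942), BAT2 (0.924), MAE1 (0.921) and AFT1 (0.899). MAE1, the mitochondrial malic enzyme, had 1832, 1607 and 1271 CPM in rpc128-1007, 241, 363 and 259 CPM in [RBS1] and 489, 554 and 476 CPM in wt. Its 3 [RBS1] libraries lay below, and its 3 rpc128-1007 libraries above, those of wt. DRE2 acts in assembly of iron-sulphur clusters and AFT1 encodes an iron-responsive transcription factor. BAT1 was followed most closely by RPL7B (0.957), BEM3 (0.932), MAS2 (0.925), GIP4 (0.918) and MIG3 (0.918). MAS2, a subunit of the mitochondrial processing protease, had 253 ± 5.46 CPM in [PRT1], 123 ± 12.5 CPM in [RBS1] and 154 ± 9.10 CPM in wt (SD, n = 3 each). RPS14B and RPL7B are ribosomal protein genes with near-identical partner genes, so their counts are uncertain. None of the 10 branched-chain genes overlapped another R64 gene or shared a stretch of 50 bases with another coding gene.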

How the data were processed

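RNA of 15 cultures (5 strains with 3 biological replicates each, as numbered in the labels) was sequenced after oligo(dT) selection. The deposited table holds raw read counts per gene, which the authors made by mapping to release EF4, and the submitters' processing notes name TopHat2 2.0.11 and DESeq2 1.24.0. The counting mode and use of strand are not given in the sources used here. Of 6600 genes, 5851 passed a filter of 1.06 CPM (a count of 10 in the median library) in at least 3 libraries and a total count of at least 15. The labels call the 3 samples of a strain biological replicates, and nothing more is said of how the cultures were separated, so the p-values measure the spread between these samples.

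Libraries held 7365923 to 12164321 counts, and the counts of single members in a library were 665 to 45951. Between 2 replicates of a strain the chi-square per gene, as a mean over all tested genes, was 8.97 to 63.6. By this mean no 2 replicates of a strain agreed within sampling noise. It was not computed for the members alone or between strains. TMM scaling factors were 0.932 to 1.05. The edgeR quasi-likelihood test (edgeR 4.0.16, limma 3.58.1, R 4.3.3) was run over all 15 libraries, checked on simulated counts, with Benjamini-Hochberg adjustment. CPM are counts per 1000000 of the TMM-scaled total. The SE of a log2 change was computed from the variances of log2 CPM (0.5 counts added) in both strains. Alternatives were DESeq2 1.42.0 with its size factors, library totals, no filter, limma-voom, fits of 2 strains alone, the replicate number as a block and leaving out libraries.

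Replicate numbers were taken to pair samples where the deviations of same-numbered samples from their strain means correlated above 0.1 in all 3 pairs. This held for rpc128-1007 against wt (0.130 to 0.224), [RBS1] against rpc128-1007 (0.550 to 0.723), [RBS1] against [RBS1-R3H] (0.152 to 0.294), [PRT1] against wt (0.247 to 0.333) and [RBS1-R3H] against [PRT1] (0.101 to 0.286). No source names a shared day or batch. The main test held no term for the replicate number, so its p-values and shares are unpaired in these comparisons too. The block was run as an alternative only.

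The members and lists were chosen with earlier results of these data known. All 10 members are named in every comparison. By rule the text also names LEU2, LEU3, GCN4, BAT2 and GDH1, from each other list the called gene with the largest change, and for OAC1 and BAT1 the 5 other genes with the highest correlation. LEU5, BAP3 and TAT1 fall outside this rule and were named after their values were seen. Names and sequences come from RefSeq R64, in which 5917 gene IDs matched, and unmatched IDs held 0.215% of counts.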

Additional observations from a re-analysis of the deposited data

How the results depend on the processing

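Of 100 log2 changes of single members (10 genes in 10 comparisons), 82 kept their sign and their side of the threshold under every alternative, 8 changed sign and 10 changed call. All 10 members stayed higher in rpc128-1007 than in wt, and lower in [RBS1] than in rpc128-1007 and in [RBS1-R3H], under every alternative run. The causes of the changes below were not tested. In fits of 2 strains alone, 636 genes were called for rpc128-1007 against wt (main 1074), 1012 for [RBS1] against rpc128-1007 (main 1737), 221 for [RBS1-R3H] against rpc128-1007 (main 671, with 0 members higher in place of 2) and 375 for [RBS1] against wt (main 633). Such fits hold fewer libraries. With the replicate block 1616, 1041, 1229 and 1166 genes were called for rpc128-1007 against wt, [RBS1-R3H] against rpc128-1007, [PRT1] against wt (main 700) and [RBS1] against wt, and 2 members were higher for [PRT1] against wt. In comparisons whose replicate numbers did not pair, the block changed the calls of ILV5 in [RBS1-R3H] against rpc128-1007 (log2 -0.45, adjusted p = 0.00258) and of LEU9 in [RBS1] against [PRT1] (log2 -0.25, adjusted p = 0.0115). Apart from these and from LEU9 and ILV5 as given in the report, the block changed no call of a member.

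Leaving out 1 library gave 1 to 3 members higher and 317 to 729 genes for [RBS1-R3H] against rpc128-1007, 0 to 1 members higher for [RBS1] against [PRT1], 410 to 637 genes for [PRT1] against wt and 276 to 438 genes for [RBS1] against wt. Without replicate 2 of both rpc128-1007 and [RBS1], 0 members were higher for [RBS1] against [PRT1]. Signs changed only for values near 0. Leaving out a library, ILV3 lay between -0.1904 and 0.0634, LEU9 between -0.0497 and 0.1934 and ILV2 between -0.0347 and 0.1169 in [RBS1-R3H] against rpc128-1007. In [PRT1] against wt LEU1 lay between -0.011 and 0.2183, LEU4 between -0.004 and 0.2802 and ILV2 between -0.0071 and 0.09, with -0.0068 for ILV2 under library totals. LEU9 in [RBS1] against wt lay between -0.0012 and 0.1405, with -0.0011 without both replicates 2, and OAC1 in [RBS1-R3H] against [PRT1] between -0.1571 and 0.0626.

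Library totals moved the median of all genes by 0.125 in [RBS1] against [RBS1-R3H] and by -0.109 in [RBS1-R3H] against wt. The split of higher and lower calls became 1460 and 574 (main 788 and 842) in the first and 580 and 1142 (main 782 and 559) in the second. It became 592 and 599 (main 745 and 329) for rpc128-1007 against wt, 1125 and 715 (main 737 and 1000) for [RBS1] against rpc128-1007, 660 and 423 (main 455 and 500) for [RBS1] against [PRT1] and 595 and 938 (main 743 and 703) for [RBS1-R3H] against [PRT1].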
